A study of Mus musculus with 4 samples.

Results

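The regions described here are 126 introns that gave at least 1 intronic circular RNA in each of 4 libraries of differentiated C2C12 cells. They are 1.60% of the 7859 introns with any intronic circle, and they hold 5624 of the 65247 distinct intronic circles. The introns were chosen by their reads: rows labelled as intronic circles were grouped by intron and strand, and an intron was kept when every library listed it. Reads and presence are therefore given as a description only. Where the circles ended played no part in the choice. An end read in all 4 libraries brings its intron in by the rule, so which ends came back is also a description.

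An intron is cut out of a transcript as a lariat, in which the 5′ splice site is tied to a branch point close to the 3′ splice site. Lariats are normally opened by the debranching enzyme and degraded. A lariat that loses its 3′ tail and escapes debranching persists as an intronic circular RNA, and RNase R, an exonuclease that digests linear RNA from its 3′ end, spares such closed molecules. Intronic circles are known mostly from the nucleus, in contrast to exonic circles, which join exon ends.

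C2C12 is an established mouse myoblast line that forms myotubes when serum is withdrawn, and all 4 libraries came from cells kept for 3 to 4 days in a medium with 2% horse serum. Libraries 1 and 2 of total RNA were labelled as controls. RPAD libraries 1 and 2 came from RNA digested with RNase R for 30 min, then polyadenylated and cleared of poly(A)+ RNA, which leaves mainly circles. Nothing in the labels ties the 2 libraries of a group to separate cultures, so p-values measure only the spread between libraries, which may be technical, and the protocol names HeLa RNA in the RNase R step although every library is labelled C2C12. The files pair none of the 244 transcript names of these introns with a gene symbol, so myotube markers could not be looked up and introns are named by chromosome and length, with positions in mm9 counted from 1. Where 4 values stand together, they follow the order total RNA 1 and 2, then RPAD 1 and 2.

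Intronic circles held 22671, 20589, 94507 and 99378 reads. All 71985 intronic entries begin exactly at the annotated 5′ splice site, so the length of a circle is the distance of its end from that site. Of the 126 introns, total RNA libraries listed 1311 and 1134 circles and RPAD libraries 2326 and 3608. Of these circles, 69.6%, 67.4%, 15.9% and 27.2% rested on 1 read.

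The introns were of middling length. Their lengths ran from 215 to 8456 nt with a median of 1057 nt, against a median of 1356 nt for the other 7733 introns. The median fell with the number of libraries that listed an intron: 1399 nt for 1 library, 1294 nt for 2, 1099 nt for 3 and 1057 nt for 4. Only 2 of the 126 (1.59%) were longer than 5000 nt, against 663 (8.57%) of the others, and 16 were at most 500 nt. These differences were not tested. The intron number, at its lowest over the transcripts listed, had a median of 8 here and 7 elsewhere. Of the 126, 3 were first introns in every listing, and 8 in at least 1 listing. For 62 of the 126 introns the libraries gave more than 1 number, since they named different transcripts for the same intron.

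The introns were spread over 19 chromosomes and 106 hosts, a host being a set of transcripts linked by a shared circle or intron. Of these hosts, 96 gave 1 such intron and 10 gave 2 or more, 30 introns in all. Chromosome 1 held 19 introns and chromosome 2 held 15. The hosts of 74 introns (58.7%) also gave an exonic circle in at least 1 library, against 30.5% of the other introns. An intron listed in more libraries can link more transcript names into its host, so these values are not on equal terms. An exonic circle abutted 17 of the 126 introns (13.5%), against 5.33%, 8.72% and 7.35% of introns listed in 1, 2 and 3 libraries. These shares were not tested.

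Circles of these introns ended a short way into the intron. The median end, with each read counted once, lay 148 and 143 nt from the 5′ splice site in total RNA libraries 1 and 2 and 142 and 137 nt in RPAD libraries 1 and 2. Ends between 100 and 200 nt took 74.0%, 77.7%, 83.1% and 85.5% of reads. The upper tail was longer in total RNA: 5% of reads ended beyond 339 and 318 nt there, and beyond 261 nt in each RPAD library. The difference of the medians, 139.5 ± 3.54 nt in RPAD against 145.5 ± 3.54 nt in total RNA (SD, n = 2 each), had an exact two-sided permutation p of 0.33, below which 2 against 2 libraries cannot go. It turned to 3.5 nt in the other direction when circles with a single read were left out.

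**Figure D1:**
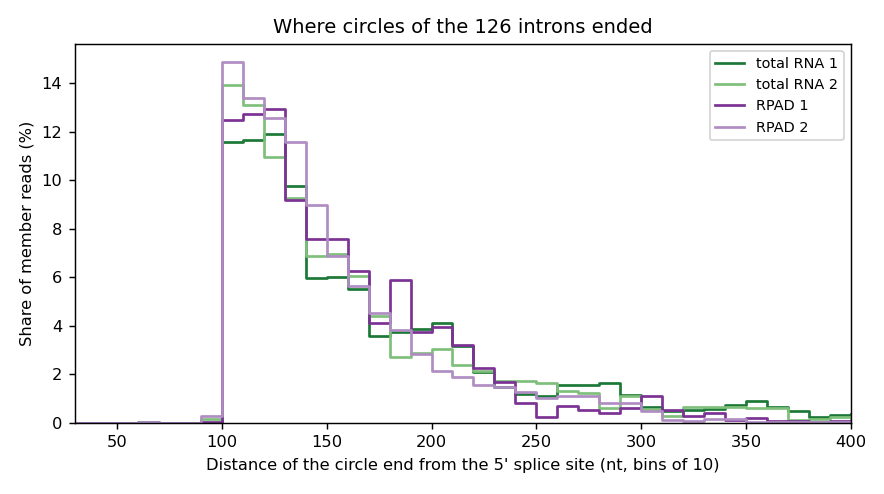
Share of reads on circles of the 126 introns (percent, y axis) by distance of the circle end from the 5′ splice site (nt, bins of 10, x axis), 1 line per library. In every library reads begin at about 100 nt, are most frequent just beyond it and thin out toward 300 nt; ends past 400 nt are not drawn.

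The nearest ends stood at almost the same place in most introns. Circles shorter than 99 nt had only 1, 0, 3 and 13 reads. The number of distinct circles was 9 at an end of 99 nt, 21 at 100 nt, 60 at 101 nt and 70 at 102 nt. In 87 of the 126 introns the nearest end lay between 99 and 110 nt. The other introns showed the same onset, with 66, 172, 648 and 703 circles at 99, 100, 101 and 102 nt. The sources used here do not give the read length of the libraries, and its part in this onset was not tested.

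Circles ended somewhat farther in for longer introns, over a range far narrower than that of intron length. The mean of the 4 library medians ranged from 104 to 418.5 nt over the 126 introns, with a median of 138 nt, and lay between 100 and 200 nt in 103 of them. In 3 groups of 42 introns by length, the median end was 127 nt for introns of 215 to 742 nt, 132 nt for 762 to 1276 nt and 145.5 nt for 1290 to 8456 nt. Across the 126 introns the Spearman correlation of intron length with this end was 0.19, given as a description, since introns share libraries and the common onset. At the extremes of length, 4 of 6 introns kept all ends within 175 nt. The intron of 8456 nt on chromosome 19 (12567041 to 12575496), a first intron, had 1, 9, 1 and 11 reads, all ending between 108 and 175 nt. The intron of 5746 nt on chromosome 1 (91034379 to 91040124) had 1, 4, 24 and 112 reads ending between 100 and 153 nt. The third longest, 4590 nt on chromosome 19 (47352921 to 47357510), had 3, 10, 122 and 381 reads, and its ends reached from 102 to 948 nt, with medians of 948, 283, 136 and 264 nt. The shortest, 215 nt on chromosome 3 (88700494 to 88700708), had 1, 1, 35 and 7 reads ending between 102 and 168 nt. Next came 334 nt on chromosome 1 (93253998 to 93254331), with 4, 2, 39 and 125 reads ending between 100 and 151 nt. The 409 nt intron on chromosome 11 (5766514 to 5766922) had 16, 19, 55 and 469 reads ending between 99 and 297 nt, with medians of 187, 215, 224 and 123 nt. The wide stretches of the last and of the 4590 nt intron lie at opposite ends of the range of lengths.

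**Figure D2:**
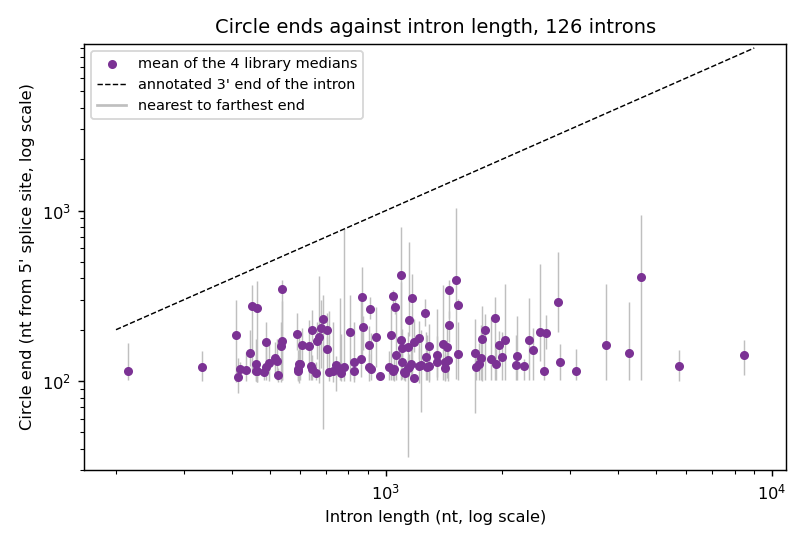
Circle ends (nt from the 5′ splice site, y axis, log scale) against intron length (nt, x axis, log scale) for the 126 introns. Points are the mean of the 4 library medians, grey lines run from the nearest to the farthest end, and the dashed line marks the annotated 3′ end; the points stay between 104 and 418.5 nt while introns lengthen from 215 to 8456 nt.

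Very few reads came from circles that reached the neighbourhood of the 3′ splice site, where branch points usually lie. Ends within 100 nt of the annotated 3′ end took 3 of 2091 reads in total RNA 1 and 0 of 1814 in total RNA 2, which allows a share of up to 0.165% by the limit of 3 counts (the two-sided exact Clopper-Pearson 95% interval ends at 0.203%). RPAD 1 had 44 of 20343 reads there and RPAD 2 had 6 of 18759. The shares were 0.143% (exact Clopper-Pearson 95% interval 0.0296 to 0.419) in total RNA 1, 0.216% (0.157 to 0.290) in RPAD 1 and 0.0320% (0.0117 to 0.0696) in RPAD 2. Most of these circles came from the 215 nt intron on chromosome 3, where a circle of 116 nt already ends 99 nt from the 3′ end. The only circle that spanned a whole intron was in the 779 nt intron on chromosome 1, with 2 reads in total RNA 1. The mean was 0.124% ± 0.130 for RPAD against 0.0717% ± 0.101 for total RNA (SD, n = 2 libraries each; two-sided exact permutation p = 0.667), and the sign of the difference changed without total RNA 2 (-0.0193 points) or without RPAD 1 (-0.0398 points).

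In each library the ends of these introns lay nearer the 5′ splice site than those of the other introns. The medians of the other introns were 158, 170, 154 and 144 nt, so the difference was -10, -27, -12 and -7 nt. The mean difference of -14 nt had the same sign in 4 of 4 libraries (exact sign-flip permutation p = 0.125, two-sided, the lowest value open to 4 libraries). It was -13 nt against introns listed in 3 libraries, -14.75 nt against introns of the same range of lengths and -15.5 nt among introns with at least 10 reads. Reads within 100 nt of the 3′ end were also fewer here than in the other introns, which had 5.42%, 3.27%, 1.09% and 0.612%, again in 4 of 4 libraries (exact sign-flip permutation p = 0.125, two-sided). Against introns of the same range of lengths the other shares were 1.91%, 2.17%, 0.964% and 0.336%. The mean gap fell from -2.50 to -1.25 points with the other introns kept to this range and to -0.878 points against introns listed in 3 libraries. It was -1.57 points without total RNA 1. The range, 215 to 8456 nt, held 3696 of the 3924 other introns of total RNA 1, so lengths were not matched within it. The 4 libraries measured the same introns, so neither p covers the spread between introns. Each read counted once, so introns with many reads weigh most, and equal weights per intron were not tried for these contrasts.

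Ends were many per intron and often stood close together. Over the 4 libraries an intron gave 5 to 136 distinct ends, with a median of 38, and the ends of the median intron spanned 88 nt. Among introns with at least 10 reads in a library, the median number of ends was 17 in each total RNA library (50 and 49 introns) and 17 and 27 in RPAD (107 and 100 introns). The interquartile range of ends in such introns had a median of 27.6, 35, 22 and 26.1 nt. The number of ends rose with the reads: across introns its Spearman correlation with the mean share of reads was 0.87, as a description.

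At equal depth the median intron still gave a different end for most reads. In the 31 introns with at least 10 reads in every library, 10 reads drawn without replacement would show a median of 9.13, 8.84, 8.13 and 9.01 distinct ends (RPAD against total RNA, exact permutation p = 0.667, two-sided). The lowest intron would show 5.48, 5.13, 2.97 and 5.42. Both RPAD libraries were below both total RNA libraries in 8 of the 31 introns and above both in 2, and in the rest the groups overlapped. With 2 libraries in each group some introns separate by chance, and how many would do so was not tested. No such counts are given for the other introns, so no difference between RPAD and total RNA is read from the 8 and the 2. The highest share of an intron's reads on any 1 circle had a median of 13.3%, 14.3%, 18.5% and 11.1% among introns with at least 10 reads. The mean was 14.8% ± 5.24 for RPAD and 13.8% ± 0.673 for total RNA (SD, n = 2 libraries each; two-sided exact permutation p = 1), and without RPAD 1 the difference was -2.70 points.

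The densest ends formed runs in which most positions were used. Ends joined while neighbours were at most 10 nt apart, with at least 40 ends in a run, gave 52 runs in 51 of the 126 introns. Of these, 27 began within 105 nt of the 5′ splice site, at the common onset, and were 42 to 136 nt wide with a median of 64 nt. The 25 that began farther in were 58 to 166 nt wide with a median of 88 nt, and 21 of them (84.0%) were 80 to 100 nt wide. Only 2 runs of the 52 exceeded 100 nt. The median run used 84.5% of its positions as an end, which the rule for runs favours. Over the whole span of its ends, the median of the 126 introns used 43.8% of positions. Some runs rested on 1 library: that of the 867 nt intron of chromosome 7 held 0%, 0%, 0% and 100% of the intron's reads. Runs of the other introns had like widths: of 161 that began past 105 nt, 80.7% were 80 to 100 nt wide, with a median of 87 nt. The rule for runs was chosen after the ends had been seen, and what sets the width was not tested.

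**Figure D3:**
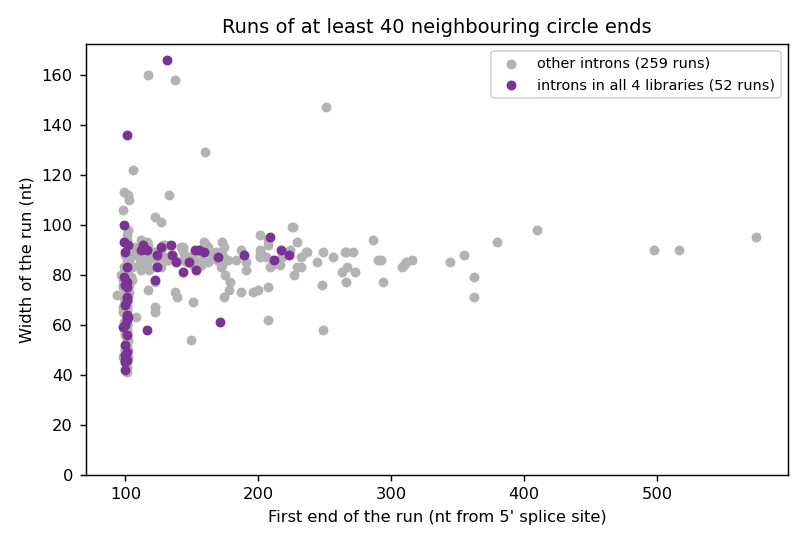
Width of each run of at least 40 neighbouring circle ends (nt, y axis) against the first end of the run (nt from the 5′ splice site, x axis), for the 52 runs of introns in all 4 libraries and the 259 runs of other introns. Runs pile up at the left edge near 100 nt with widths from about 40 nt, and those that begin farther in lie mostly between 80 and 100 nt.

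Reads were spread unevenly over the introns and differently in each library. The 126 introns held 9.22% (exact Clopper-Pearson 95% interval 8.85 to 9.61) and 8.81% (8.43 to 9.21) of intronic reads in the total RNA libraries, and 21.5% (21.3 to 21.8) and 18.9% (18.6 to 19.1) in the RPAD pair. These intervals cover counting error only. Since an intron had to be seen in RPAD libraries that listed only 1304 and 1672 introns, against 4050 and 3246 in total RNA, this difference follows in part from the choice and no test of it is used. Per intron the reads ran from 1 to 219 with a median of 6.5 in total RNA 1, from 1 to 153 with a median of 7 in total RNA 2, from 1 to 2508 with a median of 42.5 in RPAD 1 and from 1 to 1373 with a median of 56 in RPAD 2. The 10 introns with the highest mean share held 38.9% of the summed mean share.

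The intron with the highest mean share was the 497 nt intron of chromosome 2 (52057532 to 52058028, minus strand), numbered 96 to 105 in the transcripts of its host. It had 159, 132, 1766 and 1252 reads, or 0.701%, 0.641%, 1.87% and 1.26% of intronic reads. Every position from 100 to 167 nt was used as an end by at least 1 library, 68 positions in all. The median end was 128, 127, 129 and 127 nt. No circle took more than 9.09% of its reads in any library, and 39 of its 68 ends were read in all 4.

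The 779 nt intron of chromosome 1 (71675111 to 71675889, minus strand), intron 15 of its transcript, held the highest shares of any of the 126 in total RNA. It had 219, 153, 677 and 365 reads, which is 0.966%, 0.743%, 0.716% and 0.367% of intronic reads. Its ends were more concentrated than those of the 497 nt intron. The circle of 122 nt was its top circle in every library, with 13.2%, 13.1%, 14.5% and 10.1% of the reads. Of its 41 ends, 25 were read in all 4 libraries, and all but the 2 whole-intron reads ended within 144 nt of the 5′ splice site.

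RPAD 1 was far above RPAD 2 in 4 of the leading introns. The 945 nt intron of chromosome 1 (60555379 to 60556323) had 98, 23, 2508 and 94 reads. The 2594 nt intron of chromosome 9 (59513762 to 59516355) had 70, 33, 1571 and 108. The 904 nt intron of chromosome 17 (32350672 to 32351575) had 41, 64, 1093 and 9. The 2820 nt intron of chromosome 4 (41170493 to 41173312) had 5, 3, 1305 and 37. In each of these, RPAD 1 stood above both total RNA libraries as a share of intronic reads, while RPAD 2 stood below both in all but the 2820 nt intron.

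Of 4 other leading introns, 3 had both RPAD shares above both total RNA shares. Of the 125 introns here that passed a low-count filter, 28.8% did so, and of all 1026 introns that passed it, 8.19%. The leading introns were picked by their mean share over these same libraries, so nothing is read from the 3 of 4. The 1220 nt intron of chromosome 15 (77615697 to 77616916) had 64, 42, 154 and 1373 reads, and here RPAD 2 was the high library. The 1103 nt intron of chromosome 10 (122444089 to 122445191) had 39, 13, 816 and 359 reads, with both RPAD shares above both total RNA shares. The 874 nt intron of chromosome 2 (76637666 to 76638539) had 30, 80, 377 and 469, and the 1921 nt intron of chromosome 3 (100847446 to 100849366) had 53, 62, 988 and 366. In these last 2 introns, too, the RPAD shares exceeded the higher total RNA share. The median end was 176, 187, 180 and 178.5 nt in the 945 nt intron and 185.5, 193, 191 and 191.5 nt in the 2594 nt intron, but 282, 263.5, 134 and 263 nt in the 1921 nt intron.

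**Figure D4:**
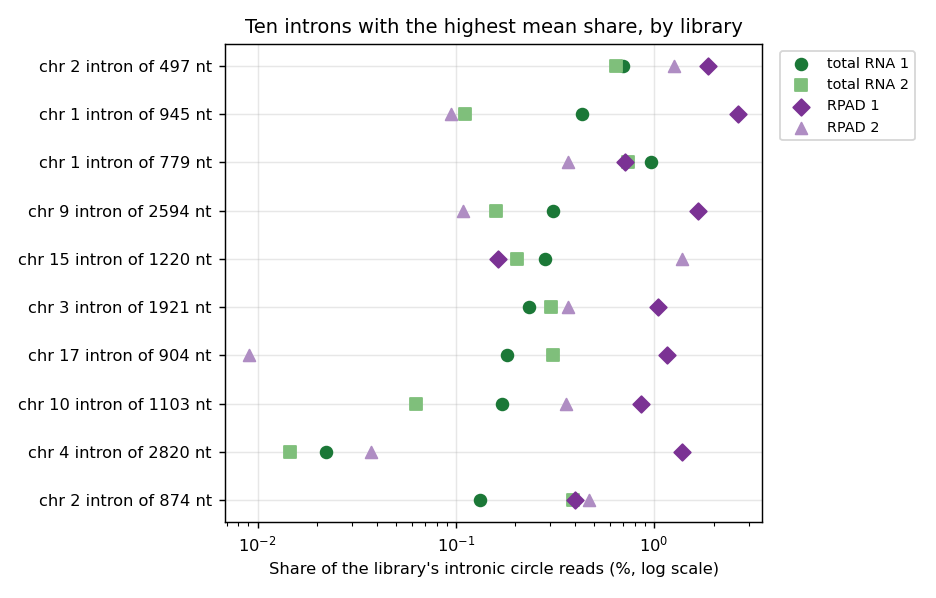
Share of each library's intronic circle reads (percent, x axis, log scale) on the 10 introns with the highest mean share (y axis, by chromosome and length), 1 symbol per library. RPAD 1 and RPAD 2 are far apart in several introns, such as 1093 against 9 reads in the 904 nt intron of chromosome 17.

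**Figure D5:**
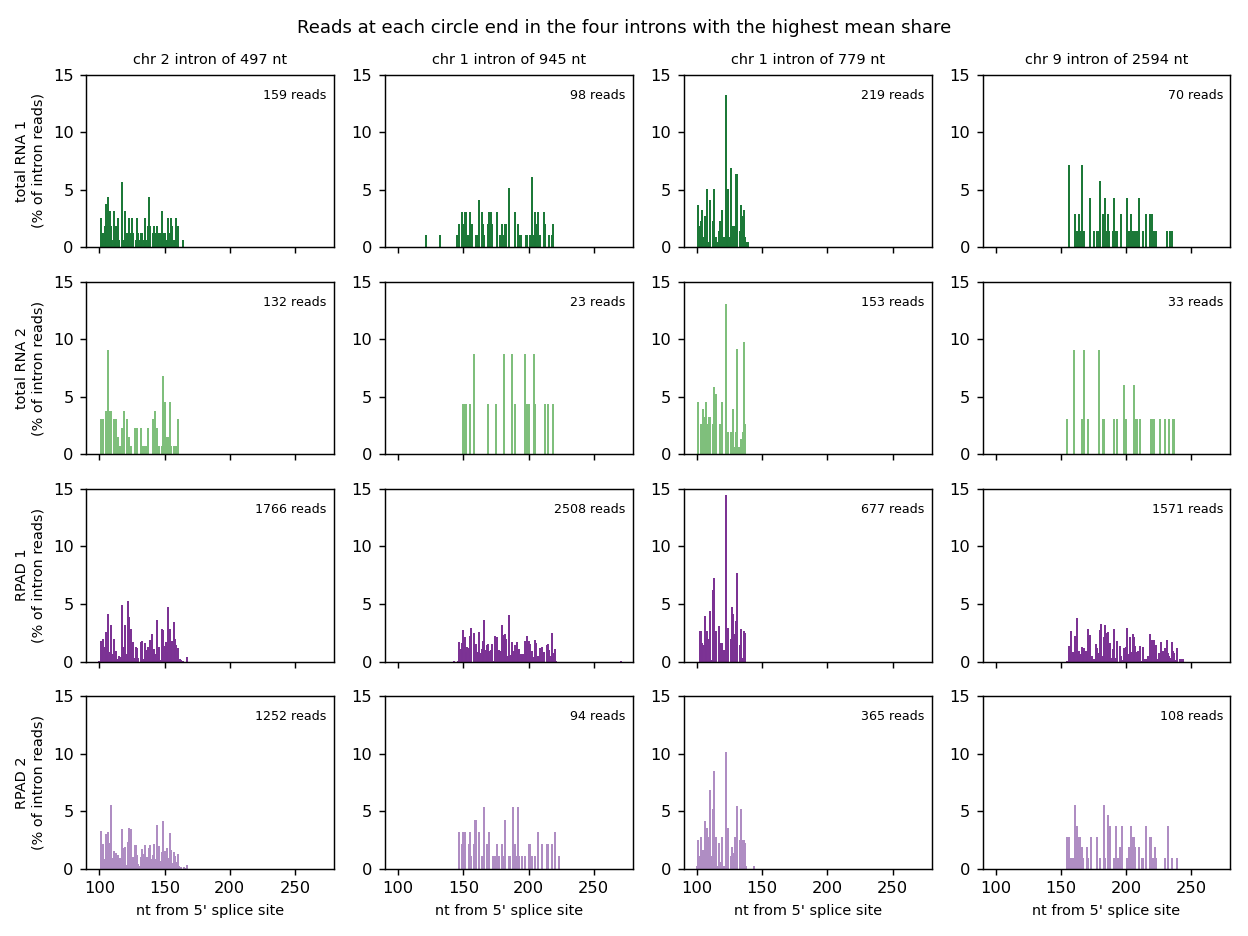
Reads at each circle end as a percentage of the intron's reads in that library (y axis) against distance from the 5′ splice site (nt, x axis), for the 4 introns with the highest mean share (columns) in the 4 libraries (rows), up to 280 nt. Each intron has its own stretch of ends that recurs in all 4 libraries, and the end at 122 nt leads in the 779 nt intron with 10.1% to 14.5% of reads.

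Shares of reads and positions of ends were compared between libraries. The share of an intron differed by a median of 4.80-fold between the RPAD libraries and 2.2-fold between the total RNA libraries, and by 10-fold or more in 31 and 2 introns. In the 31 introns with at least 10 reads everywhere, where counting error is smaller, the medians were 4.42-fold and 1.38-fold. The Spearman correlation of shares across the 126 introns was 0.564 between the total RNA libraries, 0.309 between the RPAD libraries and 0.247 to 0.445 between groups. The Spearman correlation of median ends, over introns with at least 10 reads in both libraries, was 0.825 for total RNA (32 introns), 0.531 for RPAD (86 introns) and 0.612 to 0.715 between groups (43 to 48 introns). On those same introns the correlation of shares was 0.548 for total RNA, 0.168 for RPAD and 0.163 to 0.490 between groups, below that of the median ends in each pair. These describe the introns, which share libraries and depth, and carry no p.

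How far the median end moved between libraries was taken from the 31 introns with at least 10 reads in every library. The range of the 4 medians ran from 2 to 266.5 nt and was 21.5 nt for the median intron. Both RPAD medians were nearer the 5′ splice site than both total RNA medians in 3 introns (9.68% of the 31) and farther in 4 (12.9%), and in 24 the groups overlapped. The 3 widest ranges, chosen after their values were seen, each rested on 1 library. The widest was in the 672 nt intron of chromosome 19 (21354241 to 21354912), with medians of 373.5, 130, 117 and 107 nt, where total RNA 1 stood alone. In the 463 nt intron of chromosome 11 (67035186 to 67035648) they were 314, 321, 323 and 116 nt, and RPAD 2 stood alone. In the 1921 nt intron of chromosome 3 they were 282, 263.5, 134 and 263 nt, and RPAD 1 stood alone. The last had 2 separate runs of ends, from 101 to 149 nt and from 223 to 310 nt.

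The introns with most ends had such separate stretches or long ones. The 2513 nt intron of chromosome 7 (29687047 to 29689559) gave 136 ends between 131 and 485 nt, from 48, 36, 548 and 262 reads. The 1921 nt intron of chromosome 3 gave 132. The 451 nt intron of chromosome 1 (75359595 to 75360045) gave 117 ends between 112 and 365 nt, from 6, 7, 161 and 940 reads. Its median end was 294, 343 and 302 nt in both total RNA libraries and RPAD 1 and 164 nt in RPAD 2, which held most of its reads.

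Few single ends were read in every library. Of the 5624 circles, 3679 (65.4%) were in 1 library, 1298 in 2, 484 in 3 and 163 (2.90%) in all 4. These 163 circles came from 27 of the 126 introns and ended between 101 and 348 nt, with a median of 136 nt. They held 23.3%, 25.4%, 16.7% and 11.2% of the reads of the 126 introns. With ends within 5 nt counted as shared, 2036 of the 5624 ends (36.2%) had a partner in all 4 libraries. Neighbouring positions are densely used, and how many such partners crowding alone would give was not tested.

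The share of ends found again differed with the pair of libraries and its direction. Of the ends of total RNA 1, total RNA 2 listed 25.6%, RPAD 1 44.5% and RPAD 2 49.4%. Of the ends of RPAD 1, RPAD 2 listed 46.1%, total RNA 1 25.1% and total RNA 2 21.5%. Of the ends of RPAD 2, RPAD 1 listed 29.7%, total RNA 1 17.9% and total RNA 2 16.4%. In other introns listed by both libraries of a pair, the total RNA pair shared 17.1% and 16.4% of ends and the RPAD pair 33.2% and 26.1%. Those introns hold fewer reads each, so these shares are not compared.

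The 5 recurrent circles with the highest mean share belonged to the 2 introns described above. In the 779 nt intron of chromosome 1, the circle of 122 nt (71675768 to 71675889) had 29, 20, 98 and 37 reads. The circle of 131 nt (71675759 to 71675889) had 14, 14, 52 and 20, and that of 113 nt (71675777 to 71675889) had 11, 9, 49 and 31. In the 497 nt intron of chromosome 2, the circle of 107 nt (52057922 to 52058028) had 7, 12, 73 and 40 reads and that of 117 nt (52057912 to 52058028) had 9, 3, 86 and 43. These counts are not scaled to the intronic reads of a library, which were higher in each RPAD library. No difference between RPAD and total RNA is read from them.

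Only 3 of the 106 hosts gave 3 or more of the introns. The host on chromosome 1 from 71632328 to 71699405 (minus strand; ENSMUST00000055226) gave 7 of its 28 introns with circles, 597 to 1172 nt long, with 309 ends in all. Those 7 held 313, 239, 1255 and 1203 reads, while its exonic circles had 31, 14, 0 and 14 reads. In 6 of the 7 introns all library medians lay between 110 and 153 nt. The exception was the 1172 nt intron (71666127 to 71667298), with 3, 6, 71 and 475 reads and medians of 396, 393, 309 and 129 nt.

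The host on chromosome 2 from 76543387 to 76820604 (minus strand; ENSMUST00000111882) gave 6 of its 44 introns with circles, 517 to 1099 nt long. They held 77, 131, 542 and 708 reads, few beside the 2623, 2643, 7516 and 7439 reads on its exonic circles. The 539 nt intron (76709223 to 76709761) had 29, 29, 24 and 58 reads, with medians of 351, 348, 348 and 341 nt, steady in place and far from the common onset. The host on chromosome 15 from 77602467 to 77638297 (minus strand) gave 3 introns of 1220 to 1873 nt with 147, 107, 372 and 1690 reads, and its exonic circles had 0, 0, 0 and 10. Exonic and intronic reads thus differed widely in proportion between these hosts.

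Introns of the same host could lean to different RPAD libraries, as in 2 hosts chosen after their values were seen. On chromosome 4 the host from 41143842 to 41180636 gave the 2820 nt intron, with 1305 reads in RPAD 1 and 37 in RPAD 2, and the 2409 nt intron (41143842 to 41146250), with 73 and 657. In total RNA these had 5 and 3 reads and 4 and 13. On chromosome 15 the 1220 nt intron had 154 and 1373 reads in RPAD 1 and 2, and the 1235 nt intron (77602467 to 77603701) had 161 and 19.

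Reads of RPAD against total RNA were compared in a fit over all introns, of which 1026 passed the low-count filter, 125 of them from the 126. The edgeR quasi-likelihood test called 0 introns at a Benjamini-Hochberg adjusted p under 0.05 (0.00% of those tested). An unadjusted p under 0.05 was given to 293 (28.6%), of which 7 were higher in RPAD and 286 lower. DESeq2 called 1 intron, which was not among the 126. Without RPAD 1 the edgeR test called 38 introns and without RPAD 2 it called 7, of which 0 were among the 126. Those fits tested 1628 and 1561 introns, and their RPAD arm is 1 library assumed to vary as the total RNA libraries do. Of the 125, edgeR gave 0 at an unadjusted p under 0.05 and DESeq2 gave 2. The choice of introns used these same reads and removes any intron at 0 in a library, so nothing is read from this contrast beside the 28.6% of all introns.

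Log2 fold changes of the 125 introns depended on the scaling and on the libraries. The median was 0.12 with TMM scaling, against -0.94 for all tested introns, with 68 introns higher in RPAD and 57 lower. With library totals alone the split was 84 to 41 and the medians were 0.63 and -0.51, and with DESeq2 size factors in edgeR it was 90 to 35 with medians of 0.87 and -0.29. Without RPAD 1 the split was 55 to 60 of 115 introns with a median of -0.04, and without RPAD 2 it was 52 to 62 of 114 with a median of -0.22. As shares of intronic reads, both RPAD libraries stood above both total RNA libraries in 36 of the 125 and below both in 15 (28.8% and 12%), while 8.19% and 36.4% of all tested introns did so. An intron missing from both RPAD libraries can be in the second count of all introns but not in that of the 125. The low-count filter scales its minimum to library size, so an intron could enter on fewer reads in total RNA than in RPAD. How far this shaped the values of all tested introns was not tested.

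The 3 highest log2 fold changes shrank when the higher RPAD library was left out. That direction follows from the choice of introns and of the library left out, so only the size of the drop is described. The 1707 nt intron of chromosome 15 (37907838 to 37909544) had 3, 1, 73 and 661 reads and a log2 fold change of 4.58 (SE 2.62; edgeR Benjamini-Hochberg adjusted p = 0.402), which was 1.89 without RPAD 2. The 2820 nt intron of chromosome 4 had 4.31 (SE 2.56; edgeR adjusted p = 0.433), and 0.07 without RPAD 1. The 451 nt intron of chromosome 1 had 3.48 (SE 2.24; edgeR adjusted p = 0.497), and 1.39 without RPAD 2. The adjusted p of these 3 ranged from 0.136 to 1 over the alternatives.

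The 3 lowest had few reads in every library. RPAD 2 was the higher RPAD library in each, so leaving it out lowers the log2 fold change by construction. The 1517 nt intron of chromosome 15 (77790527 to 77792043) had 9, 9, 2 and 5 reads and a log2 fold change of -4.23 (SE 1.90; edgeR Benjamini-Hochberg adjusted p = 0.222). The 679 nt intron of chromosome 17 (69635374 to 69636052) had 8, 2, 1 and 4 reads and -3.83 (SE 2.28; edgeR adjusted p = 0.433). The 908 nt intron of chromosome 6 (108611607 to 108612514) had 3, 7, 1 and 6 reads and -3.36 (SE 2.21; edgeR adjusted p = 0.518). Over the alternatives the adjusted p of these 3 ranged from 0.222 to 1, and without RPAD 2 the log2 fold changes were -5.21, -5.23 and -5.16.

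Many introns stood close to the edge of the rule. In 28 of the 126 the lowest library had 1 read, in 67 it had 2 to 9 and in 31 at least 10. The lowest count fell in a total RNA library in 104 introns, in an RPAD library in 20 and in both groups in 2. Just outside the rule were 381 introns listed in 3 libraries, of which 182 were missing from RPAD 1, 119 from RPAD 2, 59 from total RNA 2 and 21 from total RNA 1. The 3 with most reads were on chromosome 19 (47343427 to 47344327; 901 nt; 75, 0, 2257 and 16 reads), chromosome 9 (21536314 to 21536755; 442 nt; 0, 3, 2120 and 3 reads) and chromosome 5 (28077672 to 28079283; 1612 nt; 42, 88, 1459 and 0 reads). These 3 had more reads in all than most of the 126, and missed the rule by 1 library.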

How the data were processed

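The series holds 4 lists of back-spliced junctions, 1 for each library, with positions in mm9. The deposited read number of each junction is a count of back-splice reads that the authors did not normalise, per the file headers, and it equals the count inside the junction's name in every row. The deposited score of a junction comes from the authors' caller, per the file headers, and was used only in an alternative that kept junctions with score 0. The tools named are TopHat, cutadapt and Cufflinks 2.2.1, with the build mm9, per the submitters' processing notes. The circle caller is not named by any source used here. Libraries were amplified with 17 PCR cycles and no molecular identifiers are described, so intervals reflect counting error alone.

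Rows typed as intronic circles were grouped by intron and strand in Python 3.11.15. The members and the lists were chosen with earlier results of these data known. Introns are named by these rules: the 10 with the highest mean share of intronic reads, the 3 highest and the 3 lowest log2 fold changes, the 3 with most distinct ends, the 3 longest, the 3 shortest, the 5 recurrent circles with the highest mean share, and the 3 introns of 3 libraries with most reads. Hosts and widest shifts were added after their values were seen.

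Counts summed per intron were fitted with edgeR 4.0.16 (R 4.3.3; TMM, quasi-likelihood, Benjamini-Hochberg adjustment), without a replicate block. The low-count filter was filterByExpr set to 5 reads, a bound that it scales to library size, and to 10 in total. The 860 nt intron of chromosome 3 passed with 2, 4, 4 and 1 reads, below 5 in every library. DESeq2 1.42.0 was an alternative. The fit was also run on simulated counts, where it had to pass only at the lower setting of spread between libraries. That run does not show how well the fit finds changes at the spread of these libraries. Values of a library were compared by exact two-sided permutation over libraries, or by sign flips within 4 libraries. Other alternatives were other scalings and filters, each library left out, circles with at least 2 reads, a tolerance of 5 nt for shared ends and other bounds near the 3′ end. No mm9 genome was used, so no sequences, branch points or splice site scores are given. Exonic circles entered only as values of the hosts.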

Additional observations from a re-analysis of the deposited data

How the results depend on the processing

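How many introns qualify depends on what counts as a listing. The rule gave 126, which became 49 with circles of at least 2 reads, 53 with at least 5 summed reads in each library, 82 with junctions of score 0 only and 39 with the transcript name as part of the key. Grouping by 5′ splice site alone, added after the data were seen, gave 132. Introns called between RPAD and total RNA numbered 0 with edgeR, 1 with DESeq2, and 0 to 38 when 1 library was left out, the 38 without RPAD 1. The median end of RPAD minus total RNA was -6 nt, -8.5 to -3.5 nt with 1 library left out, and 3.5 nt with circles of at least 2 reads. The difference in reads near the 3′ end was 0.0524 points within 100 nt, -0.0429 within 50 nt, -0.879 within 200 nt, and -0.0398 to 0.145 with 1 library left out. For the share of the top circle, 1.01 points became -2.70 to 4.71. Circles in all 4 libraries numbered 163 of 5624, and 58 of 4064 when only circles with at least 2 reads were kept. With a tolerance of 5 nt, 2036 of the 5624 ends had a partner in every library. The causes of these changes were not tested, beyond fewer rows entering the stricter rules. The other 42 values of comparisons kept the sign of the difference or, for counts, stayed the same or close. Their moves were not set against the spread between libraries. All 56 values of log2 fold change of named introns kept their sign. In fits of all 4 libraries none of these had an adjusted p under 0.05. DESeq2 gave no adjusted p for the 908 nt intron of chromosome 6 and the 679 nt intron of chromosome 17. The comparisons with the other introns used alternatives chosen after seeing the data, as were the runs of ends.

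Adding a replicate block to the edgeR fit called 1 intron, lower in RPAD and not among the 126, and it turned the median log2 fold change of 125 of the 126 from 0.12 to -0.20 (57 higher, 68 lower). The deviations of same-numbered libraries correlated at 0.0796 over 1026 introns and 0.137 over 125 of the 126, and 2 shared numbers do not pair the libraries.

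Depth limits most of the introns: only 31 of the 126 had at least 10 reads in every library, and in 28 a single read in the poorest library decided whether the intron qualified.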
